A study of Mus musculus with 4 samples.

Results

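Transcription factor genes of the surface ectoderm and the neural plate border were followed in mouse somitic gastruloids in which the ZEB2 protein could be degraded. The 10 genes are Tfap2a, Tfap2b and Tfap2c, Dlx3, Dlx5 and Dlx6, Gata2 and Gata3, Foxi3, and Sp6, out of 24831 genes listed in the count tables. They were taken by symbol, and they were chosen by measured values of these same libraries: earlier results had shown their CPM higher with dTAG-13 than without it at both replicate numbers. Their differences between treatments are therefore given here as a description, without a test. Somitic gastruloids are aggregates of embryonic stem cells that elongate in culture and form presomitic tissue and somites. The dTAG-13 group held 2 libraries from gastruloids given 100 nM dTAG-13 at 72 h and at 96 h, and the untreated group held 2 libraries, with DMSO given as their control in the growth protocol. Both groups came from the cell line E14_triple reporter with an endogenous Zeb2-HA-FKBP12F36V degron tag, were started from 300 cells per well, received 3 μM CHIR99021, an activator of WNT signalling, after 48 h, and were moved to 10% Matrigel at 96 h. dTAG-13 links the tagged protein to a ubiquitin ligase and so marks it for degradation; the degron tag is present in both groups, so no untagged cells stand in the comparison. The libraries are numbered 1 and 2 in each group. Whether those numbers mark separate cultures is not stated in the labels, and the p-values below reflect the spread among the 4 libraries only, which could be technical.

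The surface ectoderm is the embryonic epithelium that gives rise to epidermis, and it meets the neural plate at a border zone from which neural crest and sensory placodes arise. In vertebrate embryos BMP signalling is known to favour surface ectoderm over neural plate, and TFAP2, DLX, GATA2, GATA3 and FOXI factors are among the early regulators on the non-neural side and at the border. ZEB2 (also called SIP1) is a zinc finger repressor that binds CACCT elements and interacts with SMAD proteins, and in Xenopus embryos it is known for promoting neural over epidermal fate. Several of these genes also act elsewhere: Tfap2c in trophoblast and germ cells, Gata2 in blood, Gata3 in the nephric duct, and Dlx5 and Dlx6 in branchial arches and forebrain.

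Reads counted in genes ranged from 11491330 to 12716172 per library, and 13602 genes had enough counts to be tested, all 10 members among them. The share of reads outside genes was 25.3% and 29.2% in dTAG-13 replicates 1 and 2, against 35.7% and 24.1% in untreated replicates 1 and 2. Zeb2 mRNA was at 103 and 108 CPM (the read count scaled to library depth with TMM factors) in dTAG-13 replicates 1 and 2, against 98.3 and 164 CPM in the untreated ones. The compound acts on the protein, which was not measured, so this level does not check the labels. The tissue label was checked on somite and presomitic genes chosen after their values were seen. The somite gene Meox1 was at 81.2 and 37.8 CPM with dTAG-13, against 168 and 77.2 CPM untreated. Tbx6, of the presomitic mesoderm, was at 10.3 and 7.30 CPM against 19.5 and 13.3 CPM, so both were detected in every library.

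All 10 members were higher with dTAG-13 than in the untreated library of the same replicate number, at both numbers. Among all genes tested 27.7% were higher at both numbers, but this difference is what chose the members, so nothing is read from the contrast with that share. The members' median log2 fold change was 1.14, against 0.00 over all genes tested. In 5 of the 10, namely Tfap2a, Tfap2b, Dlx5, Dlx6 and Gata2, both dTAG-13 libraries lay above both untreated ones, which held for 14.4% of all genes. In the other 5 the groups overlapped. The choice of the members favours this position too, so nothing is read from the contrast with 14.4%. Over all genes tested, 3771 were higher at both numbers, and in 1956 both dTAG-13 libraries lay above both untreated ones. Over all genes, a quasi-likelihood test in edgeR on the group alone called 0% at an adjusted p of 0.05, and 479 had an unadjusted p under 0.05. DESeq2 called 26 genes higher, or 0.221% of those to which it gave an adjusted p. Fold changes of single members rest on few libraries, and those that moved by over 1.5 times when 1 was left out are given so below. In bulk RNA of this kind, more cells of a type and more RNA per cell cannot be told apart.

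**Figure D1:**
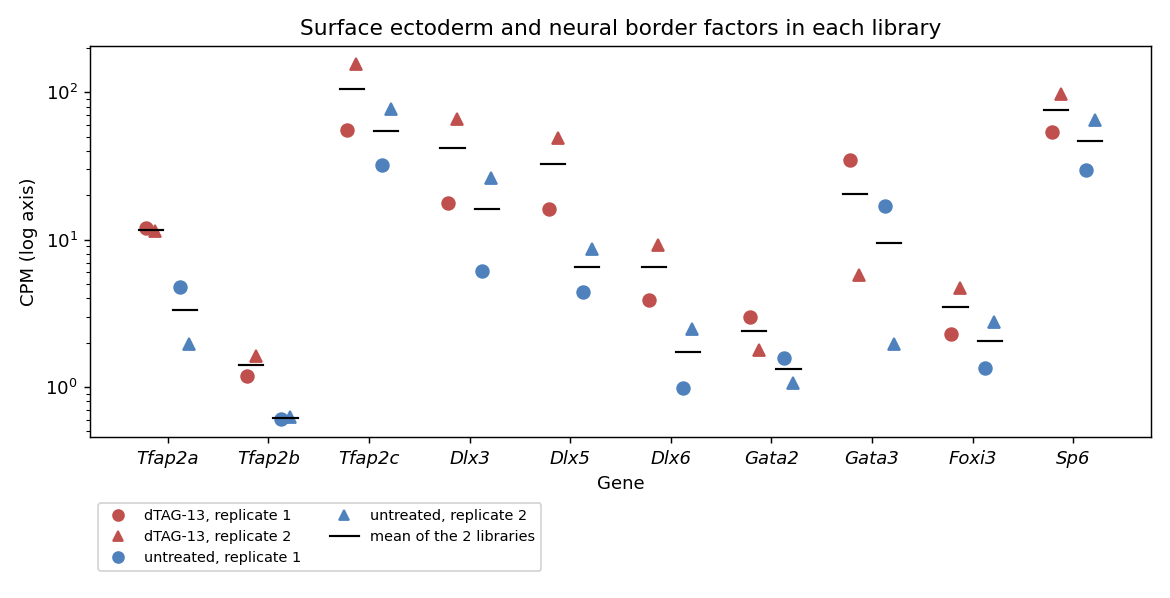
CPM on a log axis for each of the 10 genes, with the 2 dTAG-13 libraries (red) left of the 2 untreated ones (blue), circles for replicate 1, triangles for replicate 2 and a black line at each group mean. For 5 genes both red points lie above both blue ones, and Gata3 has its circles far above its triangles in both groups.

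**Figure D2:**
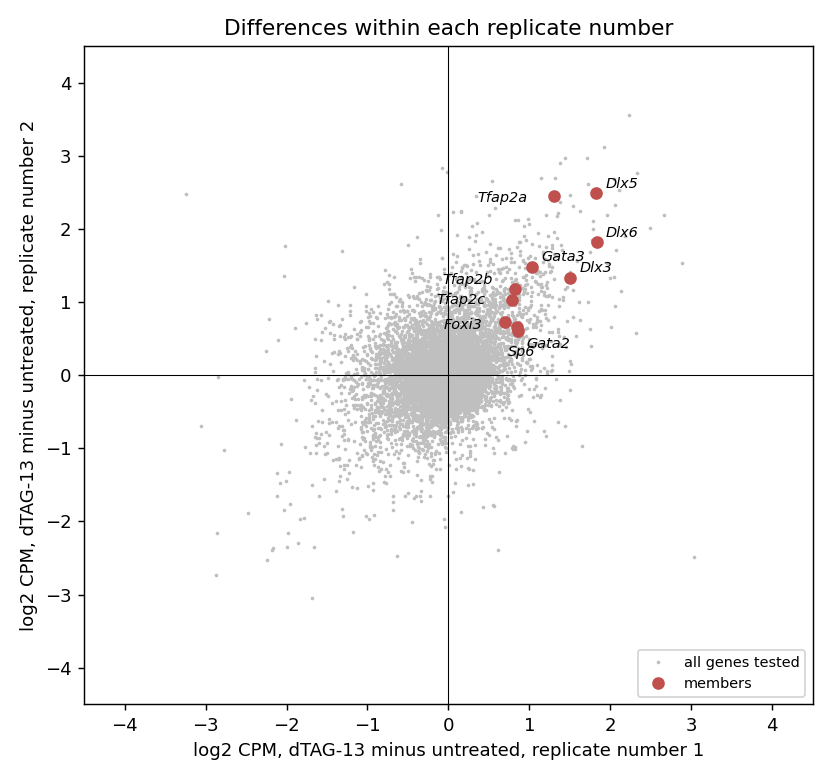
Difference in log2 CPM (prior count of 2), dTAG-13 minus untreated, in replicate number 1 (horizontal) and number 2 (vertical), for 13602 genes tested (grey) and the 10 members (red). All 10 members lie in the upper right part, from 0.70 to 1.84 on the horizontal axis and from 0.60 to 2.49 on the vertical one; they were chosen for that position.

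The TFAP2 (AP-2) factors bind DNA as dimers and include regulators of epidermis, neural crest and trophoblast. Tfap2a, which is needed for neural crest and craniofacial development, had 11.9 and 11.4 CPM with dTAG-13, against 4.75 and 1.96 CPM without it. The dTAG-13 libraries lay close together and well above both untreated libraries, which differed from each other. Its mean was 11.7 ± 0.399 CPM with dTAG-13 and 3.35 ± 1.97 CPM untreated (SD, n = 2 each). That is a log2 fold change of 1.79 ± 0.45 (SE), or 3.45-fold. The log2 value was 2.55 without untreated replicate 1 and 1.30 without untreated replicate 2. By counts, the dTAG-13 library held 2.52 times as much as the untreated one at number 1 (95% exact interval 1.86 to 3.44) and 5.81 times as much at number 2 (3.69 to 9.59). Such intervals reflect counting error alone and take each read as independent. Reads that carry no molecular identifier are not independent molecules, so the intervals may be too narrow. The members were chosen for ratios above 1 at both numbers, and a pairing by number is not established, so the intervals are no test. Tfap2c, a factor of trophoblast, germ cells and early surface ectoderm, was the member with the highest CPM, at 55.9 and 157 CPM with dTAG-13 and 32.2 and 76.8 CPM untreated. The groups overlapped, since untreated replicate 2 lay above dTAG-13 replicate 1, and the log2 fold change was 0.97 ± 0.74. Leaving out 1 library moved it between 0.02 (without dTAG-13 replicate 2) and 1.72 (without untreated replicate 2), and it was 0.45 when untreated replicate 1 was dropped and 1.52 when dTAG-13 replicate 1 was. Tfap2b, a relative that acts in kidney, neural crest and limb, was barely detected, with 14 and 19 reads in the dTAG-13 libraries and 8 and 7 reads in the untreated ones. It passed the filter on low counts through the dTAG-13 libraries alone, so its log2 fold change of 1.18 ± 0.53 comes with that selection. Its ratio of counts was 1.98 at number 1 (95% exact interval 0.776 to 5.45) and 2.59 at number 2 (1.04 to 7.29).

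The DLX genes encode homeodomain factors, and Dlx5 and Dlx6 form a linked pair on chromosome 6 (6877801 to 6882068 and 6863334 to 6867970 in GRCm38.p6) that lie tail to tail 9.83 kb apart. Dlx5, which acts at the border, in the otic and olfactory placodes and in the jaw, was at 16.2 and 49.2 CPM with dTAG-13, against 4.44 and 8.63 CPM untreated. Both dTAG-13 libraries lay above both untreated ones. Its log2 fold change of 2.33 ± 0.69, or 5.02-fold, was the largest of the 10, and it was 1.29 without dTAG-13 replicate 2. Dlx6 was at 3.92 and 9.17 CPM with dTAG-13, against 0.979 and 2.49 CPM untreated, again without overlap between the groups. Its log2 fold change was 1.92 ± 0.63, and it was 1.17 without dTAG-13 replicate 2 and 2.73 without untreated replicate 2. The pair kept a similar ratio, with Dlx5 at 4.13 and 5.36 times the CPM of Dlx6 in the dTAG-13 libraries and at 4.54 and 3.46 times in the untreated ones. Dlx3, known in epidermis, hair and placenta, lies on chromosome 11 (95120117 to 95125296) and was at 17.7 and 66.1 CPM with dTAG-13, against 6.10 and 26.2 CPM untreated. Here the groups overlapped, with a log2 fold change of 1.38 ± 1.05. The ratio of counts was 2.89 at number 1 (95% exact interval 2.23 to 3.79) and 2.53 at number 2 (2.21 to 2.90). A ratio above 1 at both numbers is what chose the gene, so these intervals are no test of it. The log2 fold change was 0.12 without dTAG-13 replicate 2 and 0.66 without untreated replicate 1, against 2.04 without dTAG-13 replicate 1 and 2.78 without untreated replicate 2.

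Coding sequences of the 3 DLX genes, not reads, were compared, and 1 stretch of 60 bases shows how far they differ. Of 231 windows of that length in the Dlx5 coding sequence, in frame and within 1 exon, it had the fewest differences (31) summed over its best ungapped matches in Dlx6 and Dlx3. Over these bases, read 5′ to 3′ from GENCODE M21 transcripts (GRCm38), Dlx6 had 14 bases and Dlx3 had 17 bases that differ from Dlx5. These are in capitals below, and the stretches lie at chr6:6879526-6879585 on the minus strand for Dlx5, chr6:6865212-6865271 on the plus strand for Dlx6 and chr11:95121839-95121898 on the plus strand for Dlx3.
Dlx5: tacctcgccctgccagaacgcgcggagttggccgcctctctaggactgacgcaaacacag
Dlx6: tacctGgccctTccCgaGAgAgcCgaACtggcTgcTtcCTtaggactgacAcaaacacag
Dlx3: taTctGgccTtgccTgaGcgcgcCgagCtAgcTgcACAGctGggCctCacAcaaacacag
Over whole coding sequences, Dlx5 and Dlx6 were identical in 50.2% of alignment columns and Dlx5 and Dlx3 in 61.0%, and the longest run of identical bases was 14 for Dlx5 with Dlx6 and 23 for Dlx3 with Dlx5. In the other families the longest shared run was 29 bases, between Tfap2a and Tfap2b, and it was 17 bases between Gata2 and Gata3. Overlapping genes are a separate limit. Dlx6 lies within Dlx6os1 on the opposite strand in GENCODE M21, Tfap2a overlaps 3 antisense genes, and Sp6 is overlapped by Gm11532 on the opposite strand. Gata3 is overlapped by Gm13256 and 4930412O13Rik on the opposite strand and by 9230102O04Rik on its own strand, and none of these partners was analysed here. Whether counting used the strand is not stated in the labels, so reads of these partners may be included, and for 9230102O04Rik strand would not separate them.

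The GATA factors bind the sequence GATA through zinc fingers. Gata3, known in surface ectoderm, the otic placode and the nephric duct, was at 34.9 and 5.77 CPM with dTAG-13, against 16.9 and 1.96 CPM untreated. Both libraries numbered 1 lay above both libraries numbered 2, whatever the treatment. At number 1 the dTAG-13 library held 2.06 times as much as the untreated one (95% exact interval 1.75 to 2.43), and at number 2 it held 2.95 times as much (1.80 to 5.01). The log2 fold change between the groups was 1.09 ± 1.42 and its sign rested on single libraries: it was -0.72 without dTAG-13 replicate 1 and 3.36 without untreated replicate 1. With number 2 of a group dropped instead, it was 1.85 for dTAG-13 and 0.26 for untreated. Gata2, known in blood progenitors and in surface ectoderm, was at 2.99 and 1.78 CPM with dTAG-13, against 1.58 and 1.07 CPM untreated. The groups did not overlap, but the counts were low, at 35 and 21 reads against 21 and 12 reads, and the ratio of counts was 1.89 at number 1 (95% exact interval 1.07 to 3.41) and 1.67 at number 2 (0.785 to 3.72). The log2 fold change was 0.84, and it was 0.42 without dTAG-13 replicate 1. Gata3 was at 11.7 and 3.24 times the CPM of Gata2 in the dTAG-13 libraries and at 10.7 and 1.83 times in the untreated ones.

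Since ZEB2 binds CACCT elements, promoter windows from RefSeq (GRCm38.p6), from 250 bases before to 50 bases after a start site, were searched on both strands for members that had an entry: Tfap2a and Gata2 with 2 windows each and Tfap2b, Gata3 and Foxi3 with 1 each. The element CACCTG (or, on the other strand, CAGGTG) was in 0 of the 7 windows, and 20.2% of all 32851 windows in the table held it. The shorter CACCT, which is contained in CACCTG, was in 3 of 7, against 51.9% of all windows. GCCNNNGGC, the motif of TFAP2 factors, was in 3 of 7 windows, against 16.6% of all, and TAATTA, a motif of homeodomain proteins, was in 1 of 7, against 5.29% of all. The windows of the members with the highest CPM among these 5 genes are shown for these letters, with CACCT or its reverse complement AGGTG and GCCNNNGGC in capitals. The Gata3 window lies at chr2:9878551-9878850 and the Tfap2a window at chr13:40733746-40734045, both on the minus strand and printed 5′ to 3′ along it.
Gata3: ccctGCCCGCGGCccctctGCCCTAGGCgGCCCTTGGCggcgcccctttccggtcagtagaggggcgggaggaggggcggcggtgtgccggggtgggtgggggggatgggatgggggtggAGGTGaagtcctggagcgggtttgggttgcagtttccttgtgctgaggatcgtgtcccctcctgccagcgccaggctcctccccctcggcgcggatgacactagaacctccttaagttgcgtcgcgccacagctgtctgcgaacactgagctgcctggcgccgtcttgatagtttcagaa
Tfap2a: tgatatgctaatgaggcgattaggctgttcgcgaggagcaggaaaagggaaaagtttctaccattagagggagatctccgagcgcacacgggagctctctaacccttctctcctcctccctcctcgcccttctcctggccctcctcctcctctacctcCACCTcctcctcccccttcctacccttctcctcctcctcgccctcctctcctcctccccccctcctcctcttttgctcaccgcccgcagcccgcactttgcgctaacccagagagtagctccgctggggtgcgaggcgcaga
The Gata3 window held 3 matches to the TFAP2 motif, near its upstream end, and 1 CACCT, and this Tfap2a window held 1 CACCT; the other Tfap2a window held neither but had the TAATTA. A match to letters is not evidence of binding, and enhancers lie outside these windows.

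Foxi3 and Sp6 complete the set. Foxi3, a forkhead factor of the preplacodal ectoderm that is needed for ear and branchial arch development, was at 2.30 and 4.67 CPM with dTAG-13, against 1.36 and 2.76 CPM untreated. The ratio of counts was 1.70 at number 1 (95% exact interval 0.902 to 3.27) and 1.69 at number 2 (1.07 to 2.72). Untreated replicate 2 lay above dTAG-13 replicate 1, and the log2 fold change was 0.77 ± 0.56. It was 0.15 without dTAG-13 replicate 2 and 0.32 without untreated replicate 1, against 1.19 without dTAG-13 replicate 1 and 1.36 without untreated replicate 2. Sp6, which encodes the zinc finger factor epiprofin of the limb ectoderm, teeth and skin, was at 53.9 and 98.1 CPM with dTAG-13, against 29.5 and 64.5 CPM untreated. The same overlap was seen, with a log2 fold change of 0.70 ± 0.52, the smallest of the 10, and the ratio of counts was 1.83 at number 1 (95% exact interval 1.61 to 2.08) and 1.52 at number 2 (1.38 to 1.67). Without dTAG-13 replicate 2 the log2 fold change was 0.18 and without untreated replicate 1 it was 0.22; without dTAG-13 replicate 1 it was 1.06 and without untreated replicate 2 it was 1.36.

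Levels of different genes were compared as CPM per kilobase of exon in GENCODE M21. Tfap2c was highest, at 28.9 ± 19.4 CPM per kb with dTAG-13 and 14.8 ± 8.56 untreated, followed by Sp6 at 19.8 ± 8.13 and 12.2 ± 6.44 (SD, n = 2 each). Dlx3 came next at 16.1 ± 13.1 and 6.19 ± 5.44 CPM per kb, then Dlx5 at 14.4 ± 10.3 and 2.89 ± 1.31, and Gata3 at 5.11 ± 5.18 and 2.38 ± 2.66. The lower end was formed by Gata2, at 0.442 ± 0.158 CPM per kb with dTAG-13 and 0.245 ± 0.0674 untreated, and Tfap2b, at 0.221 ± 0.0468 and 0.0967 ± 0.00225. Between them and Gata3 lay Dlx6 at 2.76 and 0.731, Foxi3 at 2.72 and 1.61 and Tfap2a at 2.38 and 0.684 CPM per kb with dTAG-13 and untreated. Most neighbours in this order could not be separated by their libraries: the ranges of adjacent genes overlapped in 7 of 9 cases with dTAG-13 and in 6 of 9 untreated. Gata2 lay below Tfap2a and above Tfap2b without overlap in both groups.

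The replicate number gave a contrast that did not choose the members, and the members split in it. The test was edgeR's quasi-likelihood test of number 2 over number 1 with the group as a covariate and 1 residual degree of freedom. Higher in number 2 were 5 of the 10 members, Tfap2c, Dlx3, Dlx5, Dlx6 and Sp6, where 5.2% of all genes were called in that direction. Lower in number 2 was 1 member, Gata3, where 7.51% of all genes were called so. Dlx3 had a log2 fold change of 1.99 ± 0.18 (SE, adjusted p = 4.93e-27), or 3.96-fold, and Tfap2c one of 1.37 ± 0.14 (adjusted p = 3.36e-21). Dlx5 was higher by 1.35 ± 0.20 and Dlx6 by 1.26 ± 0.36 (adjusted p = 9.97e-10 and 0.00502), and Sp6 by 0.99 ± 0.14 (adjusted p = 3.18e-11). Gata3 fell by 2.79 ± 0.23 on the log2 scale in number 2 (adjusted p = 6.82e-30), to 5.77 CPM with dTAG-13 and 1.96 CPM untreated, against 34.9 and 16.9 CPM in number 1. Both treatments showed these 6 differences in the same direction. Foxi3 (1.02 ± 0.38, adjusted p = 0.0561), Tfap2b (0.29 ± 0.52, 0.832), Tfap2a (-0.51 ± 0.28, 0.272) and Gata2 (-0.67 ± 0.43, 0.380) did not pass. Dlx6 did not pass with DESeq2 (adjusted p = 0.228), and 0 of the 10 passed with the number as the only term in edgeR. The difference between numbers exceeded the difference between treatments in size for Tfap2c, Dlx3, Gata3, Foxi3 and Sp6, the 5 members whose groups overlapped. In genes chosen as higher at both numbers, groups overlap only where the numbers differ that much, so this match is no separate result. The labels do not say what the number stands for.

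**Figure D3:**
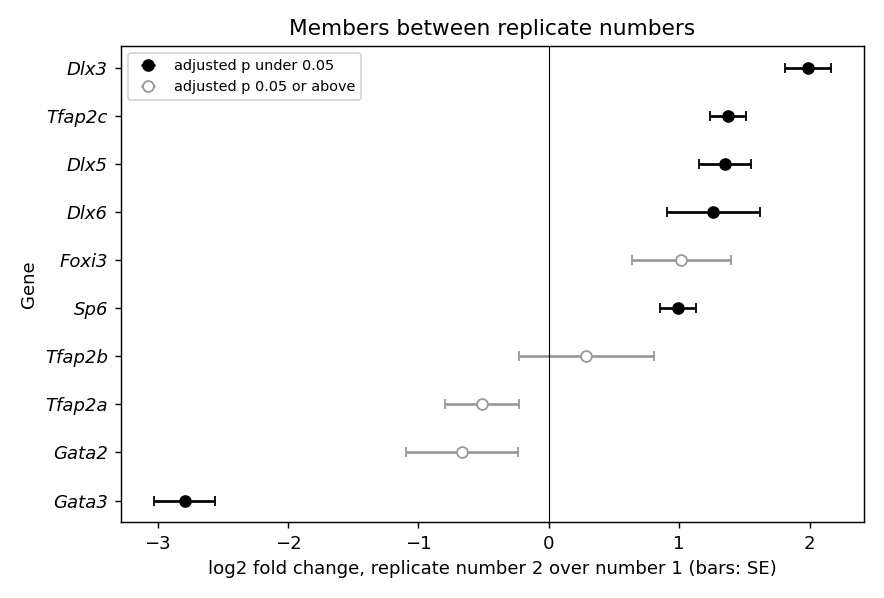
Log2 fold change of each member, replicate number 2 over number 1, from the edgeR fit with the group as a covariate (points, with bars of 1 SE); filled points passed an adjusted p of 0.05. Dlx3, Tfap2c, Dlx5, Dlx6 and Sp6 lie between 0.99 and 1.99 and Gata3 at -2.79.

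Markers of the tissues in which the members are known were then read from 13 lists of 135 distinct genes, 114 of them tested. None of the 114 passed in edgeR with the group as its only term, 20 had an unadjusted p under 0.05, and 4 were called by DESeq2: Krt8, Krt18, Msx2 and Erbb3. With the replicate number as a block in edgeR 44 passed, but a pairing by number is not established. Calls between treatments given below for the lists are from fits on the group alone, so a gene that did not pass is not thereby unchanged. Among the 114, 73 were higher with dTAG-13 at both numbers and 22 were lower at both, against 27.7% and 23.9% of all genes tested. Between numbers, edgeR called 5.2% of all genes higher and 7.51% lower in number 2, the shares that stand beside each list's counts below. The lists were written with earlier results of these data known. They share genes, such as Pax2 in the placode and nephric lists, Msx2 in the border and BMP response lists and Prdm1 in the border and germ cell lists. Counts of different lists are therefore not separate evidence.

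Of the surface ectoderm and epidermis genes tested, 18 of 18 had higher values with dTAG-13 at both numbers, and the median log2 fold change was 1.02. DESeq2 called 2 of them higher, the simple keratins Krt8 (log2 fold change 1.40 ± 0.27 in edgeR, DESeq2 adjusted p = 7.05e-04) and Krt18 (1.08 ± 0.22, 0.00708). Among genes picked after their values were seen, Trp63, the master regulator of stratified epidermis, was at 1.36 and 2.63 CPM with dTAG-13 and at 0.527 and 0.267 CPM untreated. The basal keratin gene Krt14 was at 0 and 1 reads with dTAG-13 and 1 and 2 reads untreated, so this keratin of stratified epidermis was at the limit of detection. Grhl3, a grainyhead factor of the surface ectoderm also picked after the fact, was at 54.0 and 213 CPM with dTAG-13, against 33.4 and 104 CPM untreated, and was higher in number 2 by 1.81 ± 0.14 on the log2 scale. Between numbers, the edgeR test called 8 of the 18 higher and 1 lower in number 2. The list's summed level was 977 and 1804 CPM in the dTAG-13 libraries, against 565 and 816 CPM in the untreated ones, and 0 of its members were at 0 in all libraries. Most of this sum came from Krt8, Krt18, Cdh1 and Epcam, the last 2 named after their values were seen. Cdh1 was at 302 and 619 CPM with dTAG-13, against 174 and 310 CPM untreated, and Epcam at 161 and 268 CPM against 94.3 and 130 CPM.

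Neural plate border genes did not share one direction, with 3 of 10 higher and 5 of 10 lower at both numbers and a median of -0.03. Msx2, a homeobox gene induced by BMP, was at 9.04 and 11.3 CPM with dTAG-13, against 2.26 and 1.16 CPM untreated, and DESeq2 called it higher (log2 fold change 2.55 ± 0.43 in edgeR, DESeq2 adjusted p = 0.00381). Zic1, a zinc finger gene of the dorsal neural tube, was at 1.45 and 1.78 CPM with dTAG-13, against 3.92 and 4.89 CPM untreated. Pax3, of the border, dorsal neural tube and somites, was at 10.8 and 12.7 CPM against 21.9 and 16.7 CPM. Neither Zic1 nor Pax3 passed in either tool with the group alone.

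Preplacodal and placode genes were also mixed, with 6 of 10 tested genes higher and 3 lower at both numbers, a median of 0.27 and 0 calls in either tool. Pax6, of lens and neural tube, had a log2 fold change of -2.33 ± 0.79 and Sox3, shared by placodes and neural progenitors, one of -0.98 ± 0.69. Six4, a homeobox gene of the preplacodal ectoderm and somites, was at 122 and 100.4 CPM with dTAG-13 and 101 and 79.7 CPM untreated. Foxi1 was at 0 in all libraries. Neural crest genes had a median of -0.04, with 4 of 12 higher and 3 lower at both numbers. DESeq2 called Erbb3, a neuregulin receptor also made by epithelia, higher (59.1 and 86.4 CPM with dTAG-13, against 28.2 and 35.1 CPM untreated, DESeq2 adjusted p = 0.00665). Sox9 was at 70.2 and 50.5 CPM against 39.6 and 29.5 CPM, and Sox8 at 1.71 and 1.10 CPM against 0.603 and 0.890 CPM, and neither passed in either tool.

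Genes that respond to BMP were higher with dTAG-13 at both numbers in 11 of 11 cases, with a median log2 fold change of 0.87. DESeq2 called 1, Msx2. Bambi, a decoy receptor, was at 22.01 and 22.8 CPM with dTAG-13, against 14.6 and 11.7 CPM untreated, and Smad6, an inhibitory SMAD, at 21.2 and 15.1 CPM against 11.4 and 6.41 CPM. Between numbers, the edgeR test called 8 of the 11 lower in number 2 and 1 higher, Msx1, named after its value was seen. Ligands and antagonists of BMP had a median of 0.16, with 5 of 9 higher and 2 lower at both numbers and 0 calls in either tool. Bmp2 was at 34.5 and 25.3 CPM with dTAG-13, against 19.1 and 10.5 CPM untreated, Bmp7 at 59.2 and 60.3 CPM against 47.6 and 48.4 CPM, and Fst, which encodes the antagonist follistatin, at 38.7 and 39.7 CPM against 64.5 and 56.2 CPM.

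Genes of the nephric lineage and of the placenta were read next, since both share members with this set. Intermediate mesoderm and nephric duct genes, where Gata3 acts, were higher with dTAG-13 at both numbers in 7 of 8 cases, with a median of 1.02 and 0 calls in either tool. Pax2, a factor of the nephric lineage, was at 54.2 and 6.54 CPM with dTAG-13, against 16.3 and 3.20 CPM untreated. Osr1 was at 16.8 and 6.03 CPM against 8.44 and 1.25 CPM, and Emx2 at 15.5 and 3.14 CPM against 5.65 and 2.14 CPM. As for Gata3, 6 of the 8 were called lower in number 2 by edgeR and 0 higher, where 7.51% and 5.2% of all genes were called so. This direction was not particular to the list, since 8 of 11 BMP response genes and 8 of 10 blood and endothelial genes were also called lower. The summed level of the nephric list was 348 and 101 CPM with dTAG-13 and 174 and 82.1 CPM untreated, with 0 of its genes at 0 in all libraries. The part of nephric cells in the level of Gata3 was not tested. Trophoblast and extraembryonic ectoderm genes, where Tfap2c and Gata3 act, were higher at both numbers in 7 of 8 tested cases with a median of 0.91 and 0 calls. Elf5 had 16 and 26 reads with dTAG-13, against 1 and 4 reads untreated, Krt7 was at 13.8 and 14.3 CPM against 7.83 and 6.05 CPM, and Plet1 at 4.69 and 1.19 CPM against 1.28 and 0.712 CPM. Elf5 passed the filter on low counts through the dTAG-13 libraries alone. The summed level of that list was 167 and 168 CPM with dTAG-13, against 133 and 202 CPM untreated. Much of this sum was Cdx2, named after its values were seen, at 81.6 and 128 CPM with dTAG-13, against 83.4 and 181 CPM untreated. Cdx2 was the 1 tested gene of the list that was lower at both numbers. The placental markers Prl3d1, Tpbpa, Rhox6 and Rhox9, 4 of the 13 genes, were at 0 in every library.

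**Figure D4:**
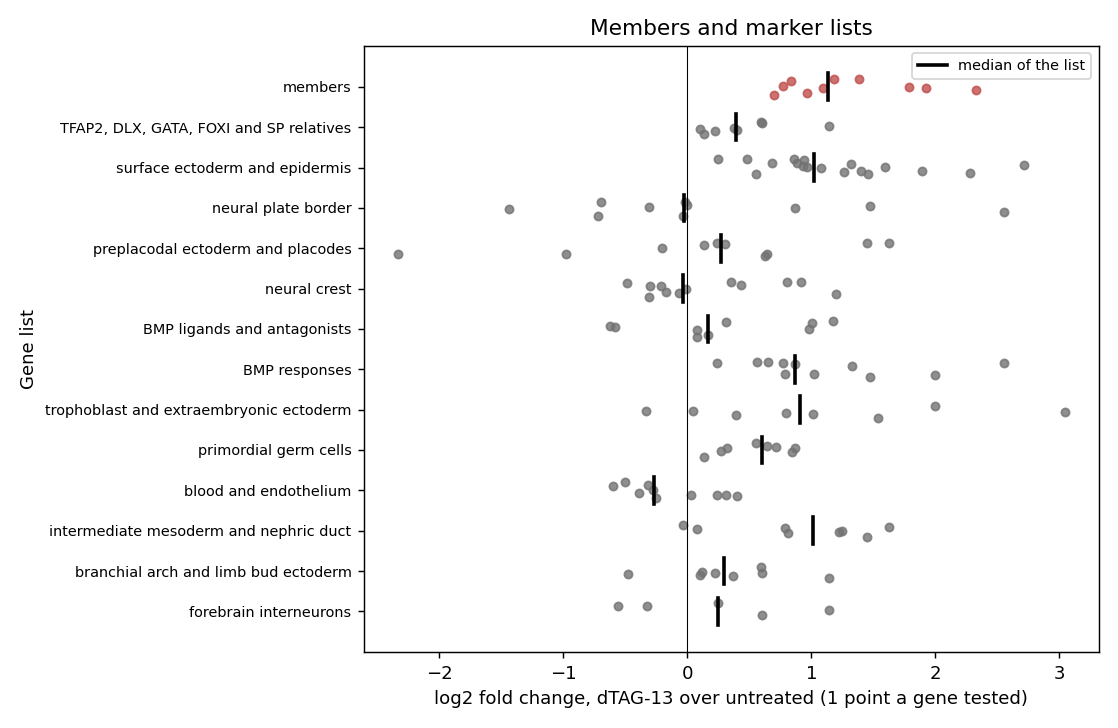
Log2 fold change, dTAG-13 over untreated, of each tested gene in the 10 members (red) and 13 marker lists (grey), with a black line at each median. Medians are near 1 for the members, surface ectoderm, intermediate mesoderm, trophoblast and BMP responses, and near 0 for neural plate border and neural crest.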

How the data were processed

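RNA was extracted with a column kit and DNase, depleted of ribosomal RNA and made into libraries with a KAPA HyperPrep kit, per the labels' protocols. The submitters' processing notes name fastp 0.20.1, STAR 2.7.6a, HTSeq 0.12.4, DESeq2 1.34.0, GRCm38.p6 and mm10, without roles; the annotation, strandedness and read length behind the counts are not stated in the labels. The authors deposited 1 table per library, with raw counts as whole numbers for each gene symbol. Summary lines (reads outside genes 24.1% to 35.7%, ambiguous 0.209% to 0.240% of reads) stayed out of library sizes and tests. Replicates of a group differed beyond sampling noise (chi-square per degree of freedom 30.9 for dTAG-13 and 36.3 for untreated).

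All 4 libraries were fitted with edgeR 4.0.16 in R 4.3.3: filterByExpr (minimum count 10, minimum total 15), TMM, robust quasi-likelihood fit, two-sided test of the group, Benjamini-Hochberg adjustment over 13602 genes, threshold 0.05. The number term was tested with the group as a covariate. SE is the absolute log2 fold change over the square root of F. DESeq2 1.42.0, other factors, filters and libraries left out were alternatives. Ratio intervals are exact, conditional on the counts of a pair and scaled by TMM library sizes.

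The members and lists were chosen with earlier results of these data known. All 10 members are given; in each list the named genes are the 3 of smallest p among those at or above 0 in average log2 CPM (2 where under 8 were tested), and others are named as chosen after their values were seen. A gene that this rule names is not reported here. Coordinates are RefSeq's (GRCm38.p6), and coding sequences, exon lengths and overlaps GENCODE M21's, aligned with Biopython 1.88.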

Additional observations from a re-analysis of the deposited data

How the results depend on the processing

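The 10 members stayed higher with dTAG-13 at both numbers with RLE or upper quartile factors or a prior count of 0.5. They were chosen for that direction and these settings move values little, so this is no check of it. Their median log2 fold change of 1.14 was 1.07 to 1.18 under other factors, filters (Tfap2b, at 48 counts, dropped out at a minimum of 50), DESeq2 or the replicate block, and 1.04 to 1.45 when 1 library was left out. Gata3 reversed to -0.72 without dTAG-13 replicate 1 and ranged up to 3.36 without untreated replicate 1. The other members kept their sign, but Tfap2c, Dlx3, Foxi3 and Sp6 came down to 0.02, 0.12, 0.15 and 0.18 without dTAG-13 replicate 2. Counts of genes past the threshold depended on the tool and design: 0 with the group alone, also under other factors, filters and without any 1 library, 40 with DESeq2 and 636 with the replicate block, and for the marker lists 0, 4 and 44. Same-numbered libraries deviated together (r = 0.63 over 13602 genes), but with 2 pairs and no label on the numbers a pairing is not established. Between numbers, 1729 genes passed, 652 with DESeq2 and 506 with the number as the only term. No number fit without 1 library was run, since none would keep residual degrees of freedom beside the group. Tfap2b and Gata2 in every library, and Foxi3 and Dlx6 in 3 of 4, had under 50 reads, which limits their values.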

Other observations

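Relatives of the members in the same families were mostly low. Of 15 relatives 8 were tested, 4 of them higher with dTAG-13 at both numbers, with a median log2 fold change of 0.39 and 0 calls in edgeR or DESeq2, and edgeR called 5 higher and 2 lower in number 2. Over all genes tested, 27.7% were higher at both numbers, and 5.2% and 7.51% were called higher and lower in number 2. Dlx2, a DLX gene of arches and forebrain, was at 0.853 and 7.81 CPM with dTAG-13, against 0.753 and 3.20 CPM untreated, and it was higher in number 2 by 2.68 on the log2 scale (edgeR adjusted p = 6.33e-09), as was Dlx4, the neighbour of Dlx3, by 1.70 (adjusted p = 0.0129), though Dlx4 did not pass with DESeq2 (adjusted p = 0.572). Gata4, a factor of heart and endoderm, was at 29.3 and 7.56 CPM with dTAG-13, against 20.2 and 4.09 CPM untreated, and fell by 2.11 in number 2 (adjusted p = 8.59e-20), the direction of Gata3.

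Genes next to the members on the chromosome were read by position. Of 18 nearest listed neighbours that are no members, 12 were tested, with a median log2 fold change of 0.06, 4 higher at both numbers and 0 called by edgeR or DESeq2. Over all genes tested, 27.7% were higher at both numbers, edgeR called 0% and DESeq2 called 0.221% higher. Nothing particular to the neighbours is read from their counts. Sdhaf3 and Sem1, on either side of the Dlx5 and Dlx6 pair, had log2 fold changes of 0.02 ± 0.32 and -0.01 ± 0.14 (SE), where Dlx5 and Dlx6 had 2.33 and 1.92. The pair was chosen for higher values with dTAG-13 and these neighbours were not, so nothing is read from that contrast. Itga3, an integrin gene 43.3 kb from Dlx3, was at 38.2 and 51.5 CPM with dTAG-13, against 24.7 and 33.7 CPM untreated. Bmp7, 309 kb from Tfap2c, had a log2 fold change of 0.32 ± 0.14.

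Other cell types that use members of this set had the following values. Of the primordial germ cell genes, 7 of 8 were higher at both numbers, at a median of 0.60, with 0 calls in edgeR or DESeq2; Prdm1 was at 60.4 and 38.5 CPM with dTAG-13, against 37.1 and 16.8 CPM untreated, Kit at 137 and 128 CPM against 97.2 and 122 CPM, and Dnd1 at 4.86 and 6.20 CPM against 3.77 and 2.94 CPM. Blood and endothelial genes had a median of -0.26, with 2 of 10 higher and 5 lower at both numbers, 0 calls, and 8 called lower in number 2 by edgeR. Pecam1 was at 23.2 and 25.3 CPM with dTAG-13, against 18.7 and 18.0 CPM untreated, Lmo2 at 14.2 and 9.17 CPM against 18.2 and 12.4 CPM, and Sox17 at 22.7 and 16.5 CPM against 19.6 and 13.5 CPM. Branchial arch and limb bud genes had a median of 0.30 with 5 of 8 higher at both numbers, and forebrain interneuron genes a median of 0.24 with 2 of 5, both with 0 calls. Fgf8 was at 47.7 and 56.7 CPM with dTAG-13, against 36.2 and 44.6 CPM untreated, En1 at 0.768 and 1.27 CPM against 0.829 and 2.05 CPM, and Gad2, an interneuron gene, at 2.13 and 5.94 CPM against 4.52 and 7.38 CPM.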
